A study of Mus musculus with 7 samples.

Results

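The genes described are amino acid transporters and their close relatives, taken as every gene of the solute carrier families Slc1, Slc3, Slc6, Slc7, Slc36, Slc38 and Slc43 with a probe set of its own on the array, apart from 1 Slc7 gene that was left out. They numbered 57 of the 18193 genes represented. Macrophage preparations came from GL261 tumours (Gl261 in the labels, n = 4), which grow from a mouse glioma cell line placed in the brain. Their hosts were C57/Bl6 mice carrying GFP-labelled bone marrow, and the tumours had grown for 21 days. Others came from the normal brain of C57/Bl6 mice 8 weeks old (n = 3), and whether they too had received labelled marrow is not stated. In both groups tissue was digested with an enzyme and macrophages were isolated by GFP and by the macrophage surface protein that Adgre1 encodes. The labels do not state whether each array came from separate or pooled mice, so p-values measure only the spread between these arrays.

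Amino acid transporters are membrane proteins that carry amino acids into or out of cells and organelles, either down a gradient, in exchange for another amino acid, or driven by sodium or proton gradients. Several Slc7 carriers reach the cell surface only as a pair with a heavy chain, Slc3a2 or Slc3a1. In macrophages these carriers supply glutamine, arginine, branched-chain amino acids and cystine, and cystine is the precursor of the antioxidant glutathione. When amino acids run short, the transcription factor Atf4 raises many transporter genes through amino acid response elements in their promoters. The families also hold carriers of related cargo, such as creatine (Slc6a8), taurine (Slc6a6) and monoamine transmitters (Slc6a2, Slc6a3 and Slc6a4).

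Promoters of 3 tested genes held the letters of the amino acid response element core, and they are shown because they belong to a gene that rose in GL261 and to others that were not called. They are windows of 300 bases, 250 before the annotated start and 50 after it, from RefSeq on GRCm38.p6. The core searched was TGATGNAA on either strand, and capitals mark its matches. Slc7a11, at chr3:50443564-50443863 on the minus strand, held 2 matches that begin 66 and 47 bases before the start. Slc7a7 is shown at chr14:54417895-54418194 and Slc1a4 at chr11:20332664-20332963, both on the minus strand.
Slc7a11: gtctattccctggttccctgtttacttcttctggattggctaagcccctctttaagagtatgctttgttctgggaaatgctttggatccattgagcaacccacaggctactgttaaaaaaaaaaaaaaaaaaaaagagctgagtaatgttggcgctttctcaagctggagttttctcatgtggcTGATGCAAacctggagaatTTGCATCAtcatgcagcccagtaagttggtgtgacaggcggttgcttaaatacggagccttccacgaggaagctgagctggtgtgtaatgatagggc
Slc7a7: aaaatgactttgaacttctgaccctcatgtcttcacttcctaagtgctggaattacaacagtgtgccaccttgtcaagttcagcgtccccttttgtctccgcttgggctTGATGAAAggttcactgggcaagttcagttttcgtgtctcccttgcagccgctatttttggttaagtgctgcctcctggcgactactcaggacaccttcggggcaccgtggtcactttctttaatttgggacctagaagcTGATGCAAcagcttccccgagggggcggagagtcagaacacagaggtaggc
Slc1a4: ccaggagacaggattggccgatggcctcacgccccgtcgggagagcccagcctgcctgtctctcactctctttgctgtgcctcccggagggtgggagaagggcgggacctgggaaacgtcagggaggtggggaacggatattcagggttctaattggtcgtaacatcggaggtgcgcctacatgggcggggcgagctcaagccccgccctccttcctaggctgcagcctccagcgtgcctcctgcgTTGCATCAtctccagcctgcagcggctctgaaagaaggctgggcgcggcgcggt
Of the 57 genes, 41 had 62 promoter windows in the RefSeq table, some of which overlap. The core was found in 5 of these windows (8.06%), against 1304 of all 32851 windows (3.97%). The 5 windows belonged to 4 of the 41 genes. Overlapping Slc7a7 windows shared 1 match, and further Slc7a7 windows held no core. Among the called genes, the windows of Slc43a2 and Slc1a1 held no core, and Slc6a8 and Slc36a2 had no window. The antioxidant response element core, TGACNNNGC, was found in 11 of the 62 windows (17.7%), against 12.4% of all windows, and in no window of Slc7a11. The 11 windows belonged to 9 of the 41 genes, and overlapping Slc7a6 windows shared 1 match. A match is a description of the letters and does not show that a factor binds there.

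Of the 57 genes, 33 had a mean signal above the filter on low values and were tested. Values are given as log2(signal + 6), where signal is the linear MAS5 intensity of the probe set, and they compare arrays, not genes with each other. In GL261 4 of the 33 genes were higher at an adjusted p under 0.05 (limma, Benjamini-Hochberg over all 12125 genes tested) and 1 was lower. These 5 genes are 15.2% of those tested, against 10.1% of all genes called. Higher genes were 12.1% of the 33 against 5.92% of all genes, and lower genes 3.03% against 4.2%. These shares depend on the filter, and without it 3 of the 57 genes were called higher and 2 lower. The genes that rose were Slc7a11, Slc43a2, Slc6a8 and Slc36a2, and Slc1a1 fell. Of the 4 higher genes, Slc36a2 passed the filter only through GL261, the group where it was high. The median log2 fold change of the 33 genes was -0.04, and that of all tested genes was 0.04. The median absolute log2 fold change was 0.42 for the 33 genes and 0.40 for all tested genes.

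**Figure D1:**
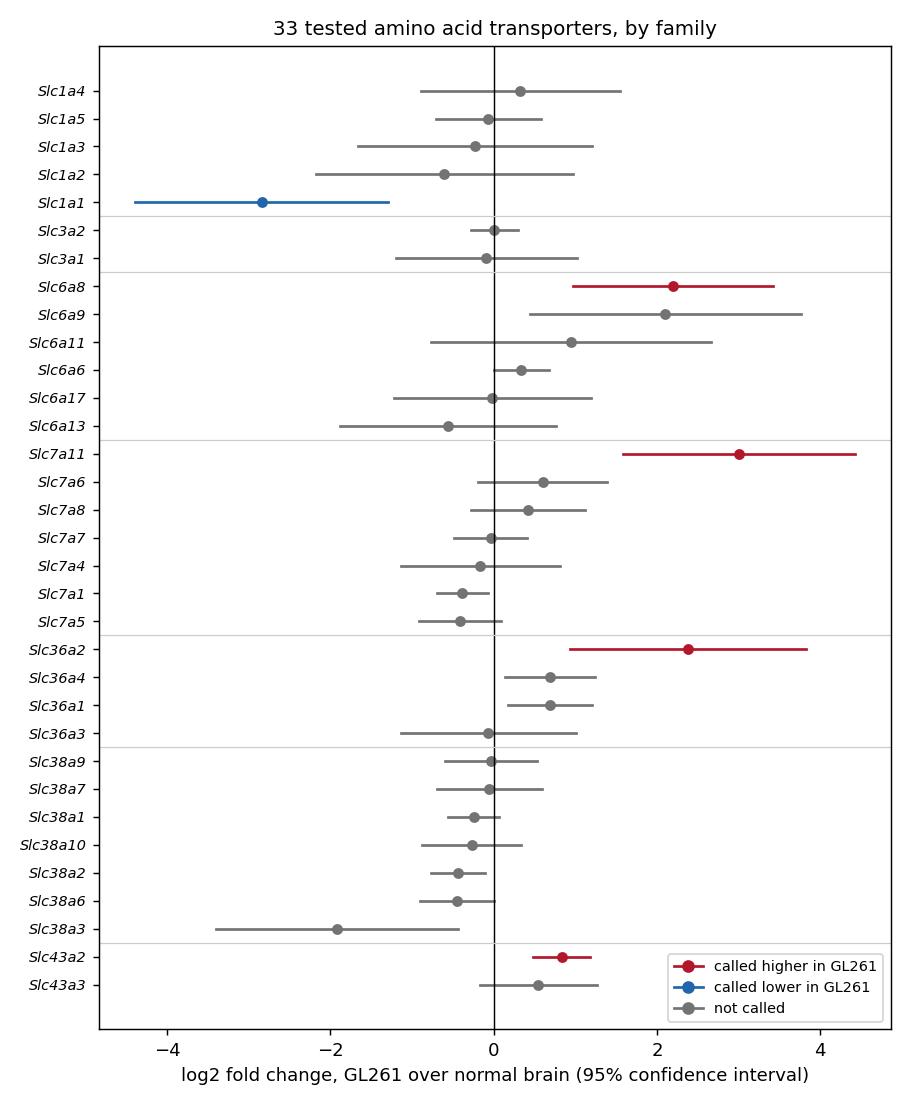
Log2 fold change of GL261 over normal brain for the 33 tested transporters, by family, with points for the limma estimate and lines for its 95% confidence interval. Red intervals are the 4 genes called higher and the blue one is Slc1a1, and the interval of the heavy chain Slc3a2 is narrow around 0.

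**Figure D2:**
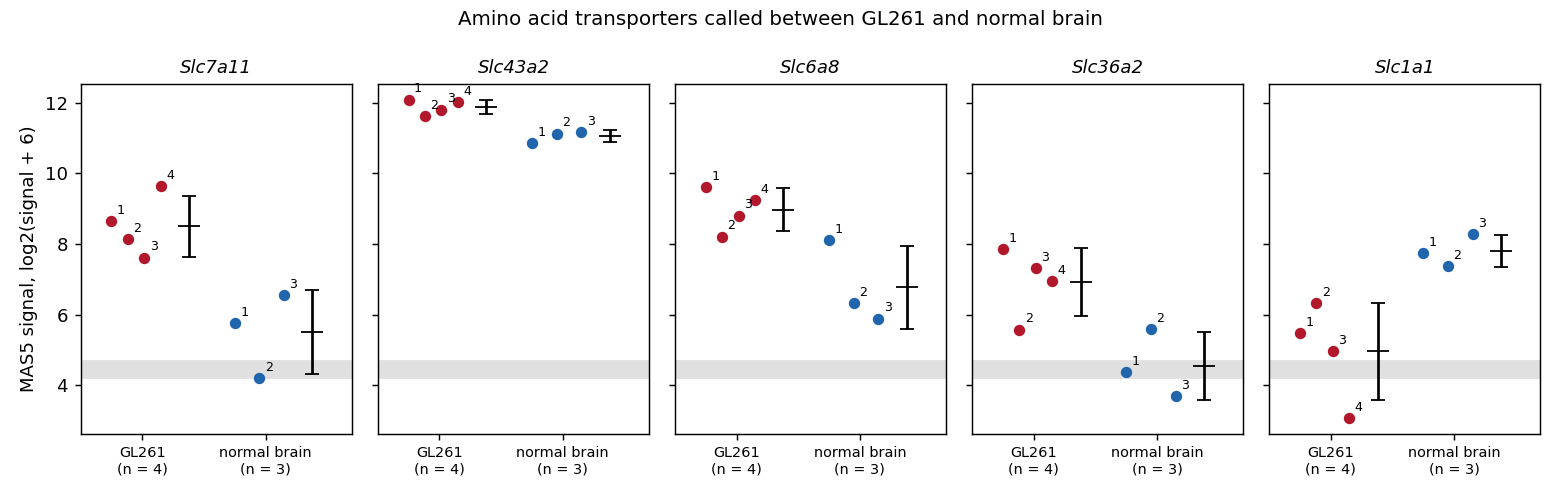
Log2(signal + 6) of the 5 called genes on every array, with the replicate number beside each point and the group mean ± SD as a black bar. The grey band spans the background levels of the 7 arrays, 4.19 to 4.70, and the Slc7a11 points of GL261 all lie above those of normal brain.

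Slc7a11 encodes xCT, the light chain of the exchanger that takes up cystine and releases glutamate. It stood at 8.64, 8.13, 7.61 and 9.63 on GL261 arrays 1 to 4, against 5.76, 4.19 and 6.55 on normal brain arrays 1 to 3. Every GL261 value was above every normal brain value, and normal brain replicate 2 was at background. The gene was 8.01-fold higher in GL261 (log2 fold change 3.00, SE 0.65, adjusted p = 0.0151). Another probe set of the gene rose by 3.35 (adjusted p = 0.00507) when every probe set was tested by itself. With 1 prior variance for all genes, whatever their signal, it was no longer called (adjusted p = 0.0544). It held when any single array was left out, with a log2 fold change of 2.63 after leaving out GL261 replicate 4 and 2.35 after leaving out normal brain replicate 2.

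Slc3a2 encodes the heavy chain 4F2hc, which xCT and several other Slc7 carriers need to reach the surface. Its GL261 values were 12.77, 12.86, 12.81 and 12.95, against 12.74, 12.995 and 12.78 in normal brain. The groups overlapped, and the log2 fold change was 0.01 with a 95% confidence interval of -0.28 to 0.30 (adjusted p = 0.973). The kidney-type heavy chain Slc3a1 was at -0.09 (95% confidence interval -1.20 to 1.02). Of the 2 heavy chain genes 0 were called by limma, against 10.1% of all genes, and 0 had an unadjusted p under 0.05.

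Slc43a2 encodes LAT4, which lets branched-chain and other large neutral amino acids pass down their gradient. It was at 12.09, 11.63, 11.81 and 12.01 in GL261 and at 10.85, 11.12 and 11.17 in normal brain. The groups did not overlap, and the spread within each was small. The gene was 1.78-fold higher in GL261 (log2 fold change 0.83, SE 0.16, adjusted p = 0.00913). Its other probe sets had log2 fold changes of 0.55 and 0.90 that were not called (adjusted p = 0.204 and 0.414). The call held when any single array was left out, but was lost with the mean of the probe sets (adjusted p = 0.134), with each array centred on its median (adjusted p = 0.0708) and with 1 prior variance for all genes (adjusted p = 0.0621). The related Slc43a3, a carrier of purine bases, was not called, at a log2 fold change of 0.55 (adjusted p = 0.318), and Slc43a1 was too dim to test.

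Slc6a8 encodes the creatine transporter. Its values were 9.62, 8.21, 8.81 and 9.25 in GL261, against 8.10, 6.33 and 5.88 in normal brain. GL261 replicate 2 and normal brain replicate 1 nearly met, while the other arrays were well apart. Its log2 fold change was 2.20 (SE 0.56, adjusted p = 0.0298), and that of another probe set was 2.73 (adjusted p = 0.0409). The call did not hold without GL261 replicate 1 (adjusted p = 0.0928), 3 (0.0767) or 4 (0.0788), or without normal brain replicate 2 (0.0705) or 3 (0.0736). It was also lost with array quality weights (0.0559) and with 1 prior variance for all genes (0.0781). Without normal brain replicate 1 the log2 fold change was 2.86.

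Slc36a2 encodes PAT2, a proton-coupled carrier of small amino acids such as glycine and proline. It stood at 7.85, 5.57, 7.31 and 6.96 in GL261 and at 4.36, 5.59 and 3.68 in normal brain, where only replicate 2 was above background. GL261 replicate 2 overlapped with normal brain replicate 2. The gene rose by 2.38 (SE 0.66, adjusted p = 0.0420). Its normal brain mean of 4.54 was under the filter of 4.93, which it passed only through GL261. With GL261 replicates 1, 3 and 4 left out in turn the adjusted p was 0.111, 0.113 and 0.0865, and with normal brain replicates 1 and 3 left out it was 0.0897 and 0.116. The call was lost in 5 of the 7 fits without 1 array and in 11 of 18 alternatives in all.

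Slc1a1 encodes EAAC1, a sodium-driven carrier of glutamate, aspartate and cysteine. It was at 5.47, 6.33, 4.96 and 3.07 in GL261, against 7.75, 7.37 and 8.29 in normal brain. All GL261 values were lower, and GL261 replicate 4 was under background. Its log2 fold change was -2.84 (SE 0.71, adjusted p = 0.0275), and the 2 other probe sets, too dim to test, had differences of -3.03 and -0.41. The call was lost in 7 of 17 alternatives, among them those that left out GL261 replicate 1 (adjusted p = 0.0505) or 3 (0.0740) and normal brain replicate 1 (0.0577) or 3 (0.0736). Without GL261 replicate 4 the call held and the gene fell by 2.21. In these mixed preparations, fewer cells of a type and less RNA per cell cannot be told apart.

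The other carriers of glutamate and small neutral amino acids in the Slc1 family were not called. Slc1a2 and Slc1a3, the uptake carriers of glutamate known from astrocytes, had log2 fold changes of -0.60 (95% confidence interval -2.18 to 0.97) and -0.23 (-1.66 to 1.21). Slc1a3 ranged from 6.56 to 8.09 in GL261 and from 6.15 to 8.96 in normal brain, and Slc1a2 from 4.71 to 7.96 in GL261 and from 6.75 to 7.92 in normal brain. Other tested probe sets had 1.13 for Slc1a3 and -0.76 to 0.74 for Slc1a2, none of them called. Slc1a5, the glutamine carrier ASCT2, was at 9.01 ± 0.31 (SD, n = 4) in GL261 and 9.07 ± 0.31 (SD, n = 3) in normal brain. Its log2 fold change was -0.07 (95% confidence interval -0.71 to 0.58), and that of Slc1a4, a related carrier of small neutral amino acids with the promoter shown above, was 0.33 (-0.89 to 1.54).

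Among the surface carriers of the Slc7 family other than Slc7a11, limma called 0 of 6 tested genes, against 10.1% of all genes. Of the 6, 1 had an unadjusted p under 0.05. Slc7a1, the cationic amino acid carrier CAT1, was at 11.60, 11.97, 11.79 and 11.89 in GL261, against 12.12, 12.32 and 12.16 in normal brain. All GL261 values were lower, but the log2 fold change of -0.38 was not called (SE 0.14, adjusted p = 0.110, unadjusted p = 0.0199). Slc7a5, the light chain LAT1 that exchanges large neutral amino acids, had -0.41 (95% confidence interval -0.91 to 0.09, adjusted p = 0.286). Slc7a8, the related LAT2, had 0.42 (-0.28 to 1.12), and Slc7a6, which exchanges cationic for neutral amino acids, had 0.60 (-0.19 to 1.39). Another Slc7a6 probe set of similar signal had -0.14. Slc7a7, the like carrier of macrophages and kidney with a promoter window shown above, was at 10.36 ± 0.14 (SD, n = 4) in GL261 and 10.39 ± 0.37 (SD, n = 3) in normal brain. Its log2 fold change was -0.04 (95% confidence interval -0.49 to 0.41), and Slc7a4 was at -0.16 (-1.14 to 0.81).

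The Slc38 family carries glutamine and other neutral amino acids with sodium at the surface, and some members work in lysosomes. All 7 tested members had negative log2 fold changes, from -1.92 to -0.03. Limma called 0 of them, against 10.1% of all genes, and 2 had an unadjusted p under 0.05. The shares of negative values and of such p-values over all genes are not given here, so these counts are not read as a result. The 7 were also negative under quantile normalization and under median centring, while 2 of 7 were positive with the mean of the probe sets, with the replicate block and without normal brain replicate 2. With GL261 replicate 4 left out 2 of 8 were positive, and 1 of 7 was with array quality weights or with normal brain replicate 1 left out. Slc38a2, an inducible glutamine and alanine carrier, was at 11.74, 11.91, 11.57 and 11.68 in GL261, against 12.34, 11.93 and 12.22 in normal brain. The groups did not overlap, though GL261 replicate 2 and normal brain replicate 2 were nearly equal, and the log2 fold change was -0.44 (SE 0.15, adjusted p = 0.0895). Slc38a1, a like carrier, had -0.24 (95% confidence interval -0.56 to 0.07). Slc38a9, the lysosomal arginine sensor, had -0.03 (-0.59 to 0.53), and Slc38a7, which moves glutamine and asparagine out of lysosomes, had -0.05 (-0.70 to 0.59). Slc38a6 was at -0.45 and Slc38a10 at -0.27, neither called (adjusted p = 0.193 and 0.583). Other tested probe sets ran from -0.89 to 0.41 for Slc38a9 and from -1.06 to 0.74 for Slc38a10, and Slc38a1 had another at 0.25.

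Slc38a3 and Slc38a5 encode SNAT3 and SNAT5, which carry glutamine, asparagine and histidine in either direction. Slc38a3 was at 3.36, 5.90, 5.14 and 5.38 in GL261 and at 6.61, 7.83 and 6.16 in normal brain. The groups did not overlap, and the log2 fold change of -1.92 was not called (SE 0.68, adjusted p = 0.0946). Slc38a5 was at 2.93, 5.13, 2.88 and 2.76 in GL261, against 7.27, 7.19 and 6.33 in normal brain. Of the GL261 arrays only replicate 2 was above background, and all 3 normal brain arrays were. Its mean over the 7 arrays lay just under the filter, so it was not tested with the others, and a fit without a filter gave -3.50 (SE 0.67, adjusted p = 0.0175). Slc38a5, Slc6a18 and Slc6a9 are described in full because of their values.

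**Figure D3:**
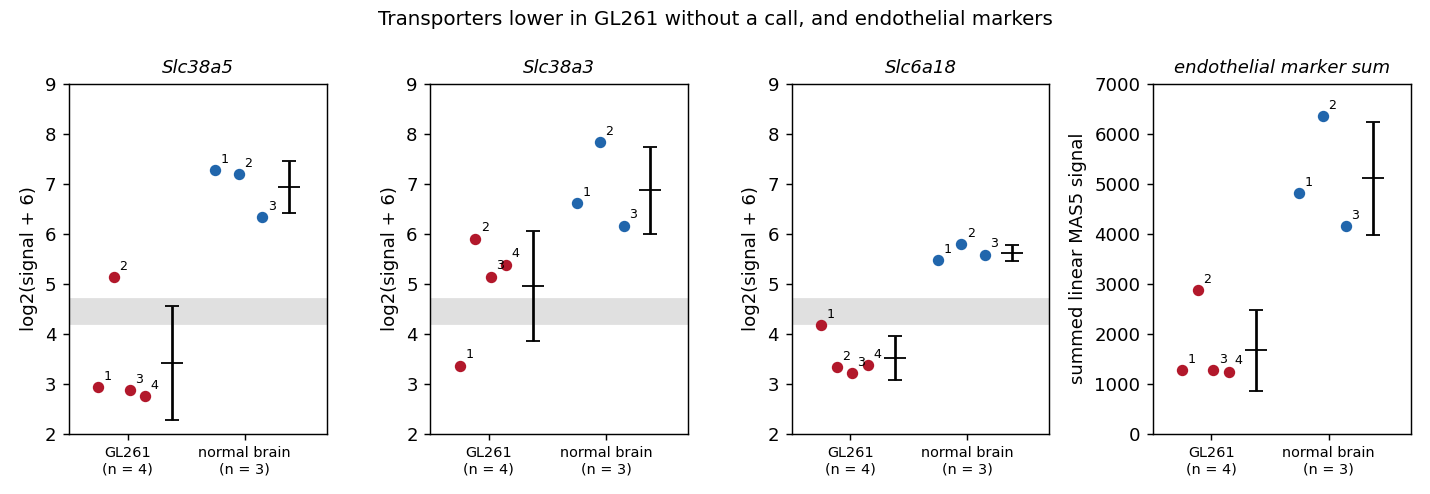
Log2(signal + 6) of Slc38a5, Slc38a3 and Slc6a18 on every array, and the summed linear signal of 12 endothelial marker genes, with replicate numbers and group mean ± SD. The grey band spans the background of the 7 arrays, and GL261 replicate 2 is the highest GL261 array for Slc38a5, Slc38a3 and the endothelial sum. It is also the highest for other marker sums that are not drawn.

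Most markers of vessel cells, though not all, had lower values in GL261. Values were also lower there for Slc1a1 (called), Slc38a3 (not called) and Slc38a5 (not tested). The summed linear signal of the 12 endothelial markers was 1280, 2879, 1278 and 1243 in GL261, against 4817, 6353 and 4148 in normal brain, and none of the 12 was at background on every array of a group. Of the 11 tested endothelial genes 4 fell (36.4%, against 4.2% of all genes) and 0 rose (against 5.92%), with a median log2 fold change of -2.06. Pecam1 went the other way, at 7.07 to 7.74 in GL261 and 5.56 to 6.70 in normal brain, with no overlap and no call (log2 fold change 1.23, adjusted p = 0.127), and Kdr was at 0.43 (adjusted p = 0.647). GL261 replicate 2 had the highest GL261 value of the sum and of Slc38a5, Slc38a3 and Slc1a1. The same array was also the highest of GL261 for the summed markers of erythroid cells (4506, against 95.3 to 204 on the other GL261 arrays), B cells (1675) and homeostatic microglia (19672). It was the highest as well for oligodendrocyte precursor (2640) and cell cycle genes (12656), whose sums were higher in GL261. Being highest on this array was thus shared by lists that were lower and lists that were higher in GL261. The part of any of these cells in the differences was not tested.

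Other cell markers also differed between the groups, and their part in the transporter values was not tested. Summed signals were higher on every GL261 array for 8 oligodendrocyte precursor genes (1038 to 2640, against 217 to 559 in normal brain), 11 pericyte and fibroblast genes (4789 to 5928, against 1058 to 2173) and 9 cell cycle genes (6061 to 12656, against 3235 to 3872). The oligodendrocyte precursor genes Cspg4, Olig2 and Gpr17 were at background on all normal brain arrays. Sums were lower on every GL261 array for 9 homeostatic microglia genes (14871 to 19672, against 29395 to 34472), 7 B cell genes (936 to 1675, against 5473 to 7318), 9 neutrophil genes (16973 to 23489, against 40789 to 52369), 6 erythroid genes (95.3 to 4506, against 9455 to 16105) and 8 choroid plexus genes (126 to 691, against 2024 to 3123). The choroid plexus list did not move as one: Ttr, at 4.36 to 6.43 in GL261 and 10.88 to 11.57 in normal brain, was the only gene of it called lower (log2 fold change -5.97, adjusted p = 0.000131), Aqp1 was called higher (3.52, adjusted p = 0.0142), and the other 6 were too dim to test. The sums of the 13 macrophage and leukocyte genes overlapped (107130 to 161070 in GL261, 128840 to 171350 in normal brain), and none of the 13 was at background on every array of a group. Sums also overlapped for 10 astrocyte genes (1787 to 3336, against 1425 to 3480), 9 neuron genes (232 to 1169, against 331 to 605), 9 oligodendrocyte genes (4856 to 8168, against 7121 to 12584) and 11 T and NK cell genes (7594 to 13859, against 6295 to 7984). Even so, 3 of the 11 T and NK cell genes were called higher (27.3%, against 5.92% of all genes) and 0 lower (against 4.2%). The median log2 fold change of the 11 was 0.82. Called higher were Cd8a by 3.03 (adjusted p = 0.00317), Gzmb by 1.69 (adjusted p = 0.00581) and Nkg7 by 0.96 (adjusted p = 0.0407). For Gapdh, the signal at the 3' end over that at the 5' end, a sign of RNA integrity, was 1.75 ± 0.13 (SD, n = 4) in GL261 and 2.41 ± 0.02 (SD, n = 3) in normal brain (two-sided exact permutation p = 0.0286, the smallest that 35 splits allow). The same ratio for actin overlapped, at 1.36 to 1.52 in GL261 and 1.43 to 1.64 in normal brain (two-sided exact permutation p = 0.143).

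The Slc36 family of proton-coupled carriers had 4 tested members, and besides Slc36a2 none was called. Slc36a1, the lysosomal carrier PAT1, was at 10.80, 9.89, 10.46 and 10.67 in GL261, against 9.82, 9.91 and 9.57 in normal brain. Apart from GL261 replicate 2, which lay between normal brain replicates 1 and 2, the GL261 arrays were higher. A log2 fold change of 0.69 was not called (SE 0.24, adjusted p = 0.0873), and without GL261 replicate 2 it was 0.87 and called (adjusted p = 0.0287). Slc36a4, a carrier of proline and tryptophan, had 0.69 (SE 0.25, adjusted p = 0.104), and Slc36a3 was at -0.07 (95% confidence interval -1.14 to 1.00).

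The Slc6 family holds sodium- and chloride-driven carriers, many of them known from neurons, and 6 of its 18 members were tested. Slc6a9, the glycine carrier GlyT1, was at 7.01, 8.75, 8.08 and 7.18 in GL261, against 7.04, 6.18 and 3.72 in normal brain. GL261 replicate 1 lay under normal brain replicate 1, and 2.10 as log2 fold change was not called (SE 0.76, adjusted p = 0.100). The gene was called without normal brain replicate 1 (2.80, adjusted p = 0.0479). Another probe set of Slc6a9 had only 0.43 when every probe set was tested by itself with limma (adjusted p = 0.649). Slc6a6, the taurine transporter, was at 12.20, 11.84, 11.82 and 12.02 in GL261, against 11.48, 11.61 and 11.80 in normal brain. The groups did not overlap, and the log2 fold change of 0.34 was not called (SE 0.15, adjusted p = 0.180). The carriers of the transmitter GABA, Slc6a11 and Slc6a13, had 0.94 and -0.56, and the vesicular carrier Slc6a17 had -0.01, with adjusted p-values of 0.483, 0.602 and 0.992.

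Of the 33 tested genes, 8 (24.2%) had groups without overlap, against 23.4% of all tested genes. They were 4 higher in GL261, against 13.1% of all genes, and 4 lower, against 10.4%. Besides the called genes Slc7a11, Slc43a2, Slc6a8 and Slc1a1, the 8 were Slc6a6, Slc7a1, Slc38a2 and Slc38a3. Of the 28 tested genes without a call, 7 had an unadjusted p under 0.05 by limma. The same share over all genes is not given here, so this count is not read as a result. A change of at least 2-fold was found for 6 of the 33 genes (18.2%) and for 15.4% of all tested genes.

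**Figure D4:**
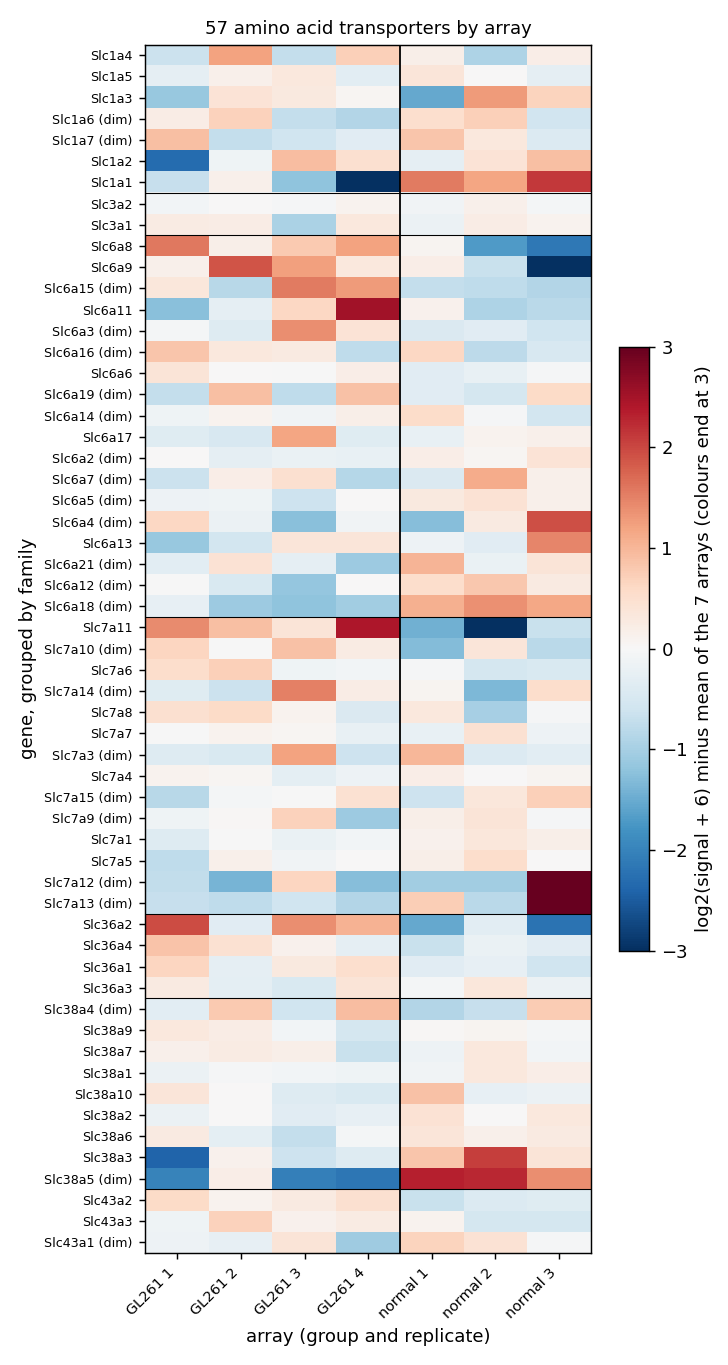
Log2(signal + 6) of all 57 genes on each array, with GL261 arrays 1 to 4 left of normal brain arrays 1 to 3, as the difference from the gene's mean over the 7 arrays. Rows are grouped by family, and the word dim marks the 24 genes under the filter. Slc7a11 is red on all GL261 arrays and blue on all normal brain arrays, and Slc38a5 is blue on all GL261 arrays but replicate 2.

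The 24 genes under the filter had mean values of 3.60 to 4.92 and were not tested. They were Slc1a6 and Slc1a7, 12 Slc6 genes (Slc6a2, Slc6a3, Slc6a4, Slc6a5, Slc6a7, Slc6a12, Slc6a14, Slc6a15, Slc6a16, Slc6a18, Slc6a19 and Slc6a21), 7 Slc7 genes (Slc7a3, Slc7a9, Slc7a10, Slc7a12, Slc7a13, Slc7a14 and Slc7a15), Slc38a4, Slc38a5 and Slc43a1. Only Slc38a5, Slc6a12 and Slc6a18 were above background on all 3 normal brain arrays, and only Slc6a14 and Slc7a10 on all 4 GL261 arrays. Slc6a18, known from kidney, was at 4.17, 3.34, 3.21 and 3.37 in GL261, at background on every array, and at 5.48, 5.79 and 5.58 in normal brain. Set against the background of the GL261 arrays it was at least 2.42-fold lower in GL261, and a fit without a filter gave an adjusted p of 0.0250. Slc6a12, a carrier of betaine and GABA, was at 3.38 to 4.57 in GL261, where 1 array was above background, and at 4.83 to 5.36 in normal brain.

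Genes of amino acid sensing and use were described from 6 lists, and their counts are read beside the 5.92% of all tested genes called higher and the 4.2% called lower. Of 32 tested genes of the amino acid response, 5 rose (15.6%) and 2 fell (6.25%), with a median log2 fold change of 0.36 against 0.04 for all tested genes. Those that rose were the serine synthesis enzyme Psat1 by 0.86 (adjusted p = 0.0118), the transcription factor Cebpb by 0.99 (adjusted p = 0.0120), the stress gene Ddit4 by 0.87 (adjusted p = 0.0373), the serine-to-glycine enzyme Shmt2 by 1.01 and the alanine-tRNA ligase Aars by 0.75 (adjusted p = 0.0454 for both). The phosphatase subunit Ppp1r15a fell by 0.87 (adjusted p = 0.0101) and the stress factor Atf3 fell by 0.56 (adjusted p = 0.0403). Atf4 itself had -0.22 and the asparagine synthetase Asns had 0.37, neither called (adjusted p = 0.377 and 0.710). With each array centred on its median, 1 gene of this list was called higher and 0 lower, and 2 were called higher when GL261 replicate 1 or 3 was left out and 3 when any other single array was.

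Of 15 tested genes of glutathione synthesis and use 2 rose (13.3%, against 5.92% of all genes) and 0 fell (median 0.25). They were Ggct, an enzyme of glutathione breakdown, by 1.502 (adjusted p = 0.0162) and the glutaredoxin Glrx by 1.22 (adjusted p = 0.02). When GL261 replicate 1, 3 or 4 was left out, 1 gene of this list was called, and none was with 1 prior variance for all genes. The rate-limiting synthesis genes Gclc and Gclm had 0.55 and 0.25 and were not called (adjusted p = 0.372 and 0.724). Nfe2l2, the transcription factor of antioxidant genes, was at 0.01 (adjusted p = 0.974).

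Of 17 tested carriers of amino acids and peptides from other families 3 rose (17.6%, against 5.92% of all genes) and 0 fell (median 0.02). Mfsd12, needed for cysteine entry into lysosomes, rose by 0.99 (adjusted p = 0.0299), Slc15a3, a lysosomal carrier of peptides and histidine, by 0.51 (adjusted p = 0.0327) and Slc25a12, the mitochondrial aspartate and glutamate carrier, by 1.18 (adjusted p = 0.0353). When GL261 replicate 1, 2, 3 or 4 or normal brain replicate 3 was left out, limma called 0 of them higher, and 1 when normal brain replicate 2 was. Of 34 genes of amino acid sensing by mTORC1, 2 rose (5.88%) and 1 fell (2.94%), which is near the shares of all genes, 5.92% and 4.2% (median 0.04). Sesn1, of the sestrin family that restrains mTORC1, fell by 1.44 (adjusted p = 0.00146), while Sec13 rose by 0.80 (adjusted p = 0.0252) and Nprl2 by 1.30 (adjusted p = 0.0336), both subunits of the complexes that regulate it. The number called higher was 0 when GL261 replicate 3 or normal brain replicate 3 was left out and 1 when GL261 replicate 1, 2 or 4 was.

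Of 12 tested genes of tryptophan and branched-chain amino acid breakdown 1 rose (8.33%, against 5.92% of all genes) and 0 fell (median -0.08). It was the branched-chain aminotransferase Bcat1, at 8.53, 9.06, 8.84 and 7.55 in GL261, against 4.19, 2.82 and 6.37 in normal brain, where only replicate 3 was above background. It rose by 4.04 (SE 0.75, adjusted p = 0.00787). Its normal brain mean of 4.46 was under the filter of 4.93, which it passed only through GL261. No gene of this list was called higher with the mean of the probe sets, with the filter at the 60th percentile, or with GL261 replicate 2 and normal brain replicate 1 both left out. Of 14 tested genes of glutamate and glutamine metabolism limma called 0, and 1 had an unadjusted p under 0.05. The smallest p-values were those of the aspartate aminotransferases Got2 and Got1, with 0.53 (adjusted p = 0.0555) and 0.38 (adjusted p = 0.240).

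**Figure D5:**
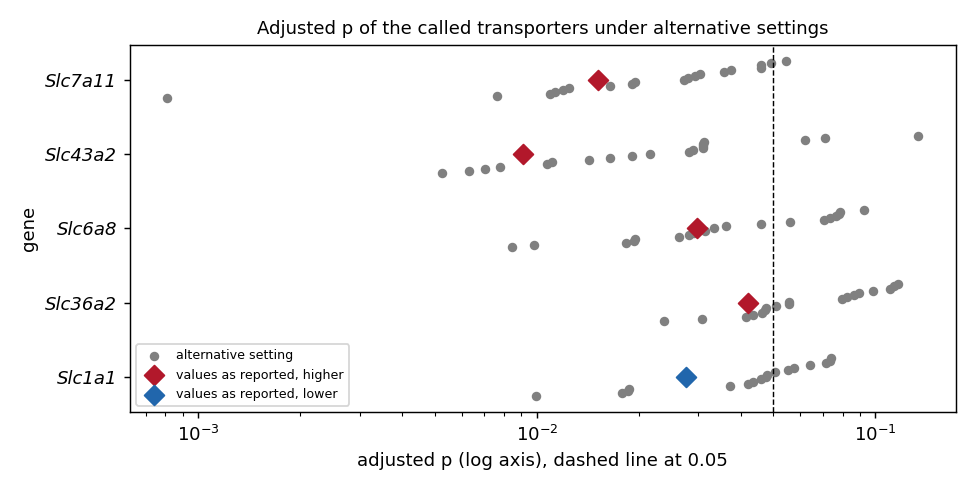
Adjusted p of the 5 called genes under alternative settings (grey points, log axis) and as reported (diamonds), with a dashed line at 0.05. The grey points of Slc7a11 lie left of the line but for 1 at 0.0544. Those of Slc43a2, Slc6a8, Slc36a2 and Slc1a1 lie on both sides of it.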

How the data were processed

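Affymetrix arrays gave 1 MAS5 signal per probe set, a linear intensity that the authors deposited for 7 arrays, made with MAS5 per the submitters' processing notes. The version of MAS5 is not given in the sources used here. The mean without the lowest and highest 2% was 500.0 on every array, and no further scaling was applied. Depth is not defined for arrays, and their number limits the precision. There were 0 columns of other samples. Of 45101 probe sets 34945 had 1 gene symbol, 932 several and 9160 none, and 64 were controls. The symbols of all 57 transporters matched RefSeq gene IDs (GRCm38.p6).

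For each gene the brightest probe set by mean log2(signal + 6) was used; the pseudocount of 6 is near the 20th percentile of the signals. Fold changes on this scale understate changes of dim genes. Genes with a mean above 4.93, the 40th percentile, were tested with limma 3.58.1 in R 4.3.3 (moderated variances following the mean signal, two-sided, Benjamini-Hochberg over 12125 genes). The mean used for this filter is over both groups, so a gene could pass through the group where it was high. Slc36a2, Bcat1 and Aqp1, all called higher, passed in this way. Background was the 95th percentile of 27 Bacillus control probe sets on each array. The members, gene lists and alternatives were chosen with earlier results of these data known. Called genes, 15 transporters fixed by role, those with groups that did not overlap and up to 4 called genes a list in the main direction and 1 in the other were named in full. Further genes were named after their values were seen. Alternatives were other pseudocounts (1 and 58), filters (none and the 60th percentile), normalizations, variance models, probe set choices, a replicate block and omitted arrays. In 10 runs on simulated data with 200 of 12125 genes changed, 26.3% of log2 changes of 1 and 60.8% of log2 changes of 2 were recovered, and 4.20% of calls were false. In the data 1227 genes were called, and the Benjamini-Hochberg cutoff depends on how many genes change. The recovered shares therefore hold for the simulated setting and are not the recovery in the data. 1 gene of the Slc7 family is not reported here.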

Additional observations from a re-analysis of the deposited data

Results flagged for a closer look

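In 5 of the 57 genes, 1 GL261 array stood far from the other 3 by Dixon's gap, and about 1 in 20 groups does so by chance. Slc38a5 was at 5.13 in GL261 replicate 2 and at 2.76 to 2.93 in the others. Slc38a7 was at 8.58 in replicate 4 and 9.40 to 9.50 in the others. In replicate 3, Slc3a1 was at 5.35 (others 6.52 to 6.60), Slc6a17 at 6.16 (others 4.51 to 4.62) and Slc7a3 at 5.96 (others 4.12 to 4.38). Slc38a5 and Slc7a3 were too dim to be tested between the groups, and the other 3 genes were not called.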

How the results depend on the processing

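Across the 19 alternatives, 26 of the 28 uncalled transporters were called in none, and no called gene changed direction, while 15 uncalled genes changed sign in some. The number of transporters called higher, 4 as reported, was 0 when limma's variances did not follow the signal (10 of 33 genes with an unadjusted p under 0.05), 2 with array quality weights and 2 to 5 without 1 array. It was 2 without normal brain replicate 3 or GL261 replicate 1, 3 or 4. The number called lower, 1 as reported, was 2 with a pseudocount of 58 or no filter. It was 0 with the filter at the 60th percentile, the mean of the probe sets or variances that do not follow the signal. Slc1a1 was too dim to be tested with that filter or with the mean of its probe sets. Without a filter Slc38a5 and Slc6a18 were called lower, and Slc1a1 was not (adjusted p = 0.0552). Without 1 array the number called lower was 0 to 2. It was 0 without normal brain replicate 1 or 3, and 2 without GL261 replicate 4. Without GL261 replicate 1 or 3 the only gene called lower was Slc38a5. With the replicate block 3 genes were called higher and 0 lower. Deviations of same-numbered arrays from their group means had correlations over genes of 0.0792, -0.00754 and 0.0310. Over all pairs of a GL261 and a normal brain array these ran from -0.0678 to 0.0792. So few arrays cannot decide whether same-numbered ones share more than a number. Over the alternatives, called genes of the amino acid response numbered 0 to 5 higher and 0 to 2 lower, and those of the other carriers 0 to 3 higher. Of all tested genes 1227 were called, against 455 with 1 prior variance for all genes, 809 with median centring, 819 with the mean of the probe sets and 539, 706 and 727 without GL261 replicates 3, 1 and 4. Apart from genes that a filter left out or let in, the cause of changed calls was not tested. Of the transporters only Slc6a18, at background on every GL261 array and above it on every normal brain array, has a bound. Other genes near the background of 4.19 to 4.70 have fold changes without a bound.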

Other observations

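A few dim carriers were bright on a single normal brain array. Slc7a12 was at 8.96 in normal brain replicate 3, against 3.09 and 3.08 in replicates 1 and 2 and 2.72 to 4.77 in GL261. Slc7a13, a kidney carrier of aspartate and glutamate, was at 6.69 in the same array and at 2.81 to 3.08 in GL261. Slc6a4, the serotonin transporter, was at 6.20 there, against 3.00 and 4.54 in the other normal brain arrays and 3.01 to 4.89 in GL261. The amino acid response core was also found in 1 window of Slc6a21, which was too dim to test.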
